A study of Homo sapiens with 4 samples.

Results

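Actins, tropomyosins, myosin chains and their companions transgelin and calponin were followed in cells named NCC-IT-A3. This is a line of embryonal carcinoma, a germ cell tumour whose cells resemble those of the early embryo. The 10 genes were ACTB, ACTG1, TPM1, TPM2, TPM4, MYL6, MYL9, MYH9, TAGLN and CNN2, taken by name from the 27685 gene IDs of each library after their IDs had been matched to symbols. RNA came from 2 groups of 2 libraries. The treated cells had received barasertib at 100 nM for 4 days, a compound that blocks the mitotic kinase Aurora B, and the control cells had received the solvent DMSO over the same time. Both groups are the same line, grown in RPMI medium with serum, with no genetic change named in the labels. Separate cultures are not stated in the labels, and all p-values therefore describe the spread between these 4 samples, part or all of which may be technical.

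Actin monomers assemble into filaments that carry the cell cortex and stress fibres. Tropomyosins are coiled-coil proteins that lie along these filaments and govern which proteins may bind them, and non-muscle myosin II, built from heavy chains with essential and regulatory light chains, pulls on them. In dividing cells actin and myosin II form the contractile ring that separates the daughters, a step for which Aurora B is also required. Many genes of the actin cytoskeleton are targets of the transcription factor SRF and its actin-sensing partners MRTFA and MRTFB, which bind a DNA element called the CArG box.

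Values are TPM, a relative transcript abundance with a fixed total per library, which is scaled by transcript length and so allows levels of different genes to be compared. Aligned sequence, estimated from the ratio of coverage to FPKM, was 4.59 and 4.52 Gb for barasertib, against 4.22 and 4.43 Gb for DMSO. Replicates correlated with r = 0.992 and 0.993 on the log2 scale across genes, against 0.979 to 0.981 between groups. The pluripotency gene POU5F1 stood at 3949 to 3999 TPM with barasertib and 3524 to 3708 TPM with DMSO. All 7 embryonal carcinoma markers were tested in the comparison described below, and 5 were called higher (POU5F1, NANOG, LIN28A, DPPA4 and DNMT3B; 2 of them under all 3 scalings) and 1 lower, SOX2, at 381 and 398 TPM with barasertib and 456 and 446 TPM with DMSO, also under all 3 scalings. Of 15 striated muscle markers 12 were below the minimum, among them MYOD1, MYOG, MYH6 and MYH7, and 5 were listed at 0 in all 4 libraries. Their summed level was 50.0 to 50.2 TPM with barasertib and 21.3 to 23.6 TPM with DMSO, most of it DES (desmin), the 1 of 3 tested markers called higher. Smooth muscle markers summed to 63.6 to 64.8 TPM with barasertib and 29.8 to 29.9 TPM with DMSO, again mostly DES. Of 9 listed, 5 were tested and 4 were called higher together with the genes described below, namely DES, ACTG2, SMTN and SYNPO2 (3 under all 3 scalings), while ACTA2, MYH11, LMOD1 and MYOCD lay below 1 TPM in every library. Fibroblast markers summed to 124.6 to 134 TPM with barasertib and 16.5 to 17.1 TPM with DMSO, of which THY1 took 120 and 111 TPM with barasertib and 7.83 and 7.15 TPM with DMSO, and of 9 listed, 3 were tested and 2 were called higher, THY1 and PDGFRA (1 under all 3 scalings). COL3A1 did not pass the test, COL1A1 had 1.41 and 0.990 TPM with barasertib and 0.497 and 0.210 TPM with DMSO, and COL1A2, DCN, LUM, PDGFRB and FAP lay below 0.3 TPM. What part these markers had in the results below was not tested, and in bulk RNA fewer cells of a type cannot be told apart from less RNA per cell.

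With barasertib, 6 of the 10 genes rose and none fell: ACTB, ACTG1, TPM2, TPM4, MYL6 and MYH9 (limma on log2(TPM + 1), Benjamini-Hochberg adjusted p under 0.05 over all genes tested). TPM1, TAGLN and CNN2 did not pass the test, and MYL9 had a mean of 0.989 TPM, under the minimum of 1 TPM, and was not tested. Among all 13938 tested genes 22.0% were called higher and 7.44% lower, and among the 1717 with a mean of 100 TPM or more, where 8 of the 10 genes stand, the shares were 35.5% and 19.5%. The median log2 change of the 9 tested genes was 0.33, beside 0.11 over all tested genes. Another scaling of the libraries lowers that general median by 0.12 (median-of-ratios scaling and quantile normalisation alike), and the 5 genes that rose under all 3 scalings were ACTB, ACTG1, TPM2, TPM4 and MYL6. Over all tested genes 10.0% were called higher under all 3.

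**Figure D1:**
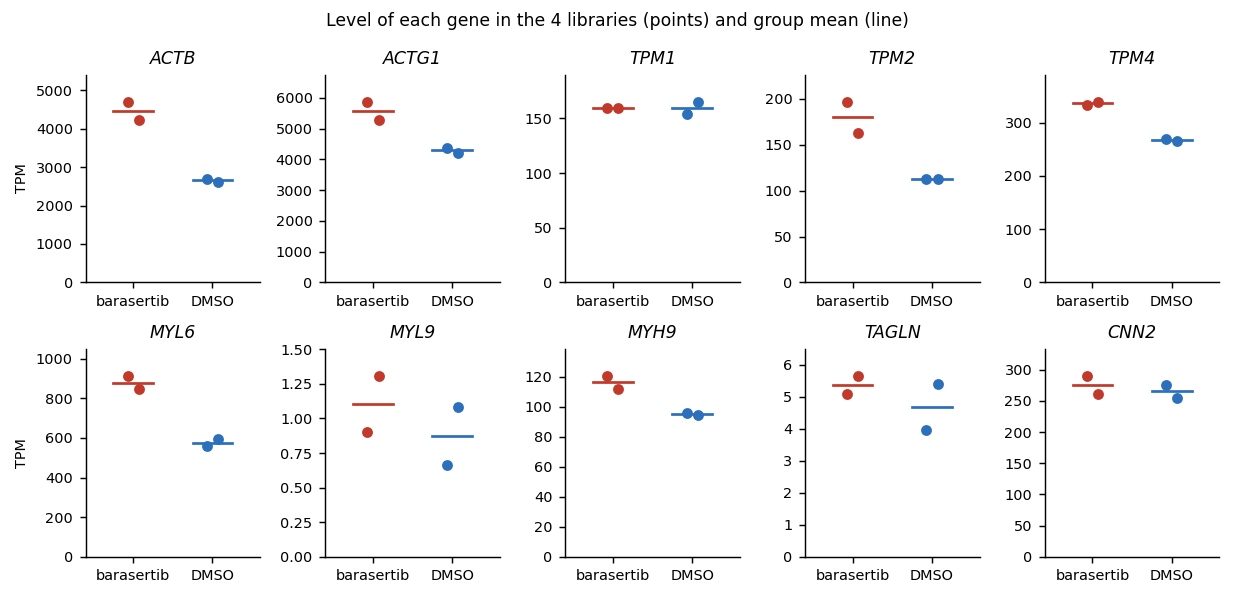
Level of each of the 10 genes in TPM (vertical axis, from 0) in the 2 barasertib and 2 DMSO libraries, with points for libraries and lines for group means. Both barasertib points lie above both DMSO points for ACTB, ACTG1, TPM2, TPM4, MYL6 and MYH9, and the groups overlap for TPM1, MYL9, TAGLN and CNN2.

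The levels spanned a wide range, and their order was nearly the same in both groups. ACTG1 stood highest, followed by ACTB, MYL6, TPM4 and CNN2, then TPM2, TPM1 and MYH9 with barasertib, or TPM1, TPM2 and MYH9 with DMSO, and TAGLN and MYL9 came last. With barasertib no neighbours in this order overlapped. With DMSO, TPM4 (266.8 ± 2.65 TPM, SD, n = 2) and CNN2 (265.6 ± 14.3 TPM, SD, n = 2) did. By level, ACTG1 ranked 7 and 10 among all gene IDs in the barasertib libraries, against 19 and 21 in the DMSO libraries, and ACTB ranked 12 and 17, against 56 in both DMSO libraries. Mean coverage per base ranged from 5000 to 9352 for ACTB and from 7.34 to 10.5 for TAGLN, and was 1.23 to 2.52 for MYL9, so that MYL9 rests on few reads.

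Because the genes differ in response, the 250 bases before the annotated start were compared for the genes that have an entry in the RefSeq promoter table (GRCh38.p14), which were 7 of the 10. ACTB, TAGLN and MYL9 have none. The search was for the CArG box, a 10-base element that reads the same on both strands in its general form, so a match on one strand is a match on the other. It was present before the start of ACTG1, CNN2 and TPM4, and not in the windows of TPM1, TPM2, MYL6 and MYH9. Of all 27305 genes with a window 1.44% hold one. Many actin cytoskeleton genes are known targets of SRF, so boxes among the genes of the set are no separate result. The sequences of ACTG1 (chr17:81512800-81513049, minus strand), TPM4 (chr19:16067288-16067537, plus strand), CNN2 (chr19:1026358-1026607, plus strand) and MYL6 (chr12:56158109-56158358, plus strand) are shown 5′ to 3′ as the pairs in which box and rise do and do not go together, with that of ACTG2 (chr2:73892758-73893007, plus strand), the relative with the largest change on the log2(TPM + 1) scale. Capitals mark the boxes.
ACTG1: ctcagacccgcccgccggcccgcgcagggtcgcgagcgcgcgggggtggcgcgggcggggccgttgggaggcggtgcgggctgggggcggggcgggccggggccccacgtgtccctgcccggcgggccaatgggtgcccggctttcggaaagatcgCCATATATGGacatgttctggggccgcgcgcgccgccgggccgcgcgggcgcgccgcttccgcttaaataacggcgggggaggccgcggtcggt
TPM4: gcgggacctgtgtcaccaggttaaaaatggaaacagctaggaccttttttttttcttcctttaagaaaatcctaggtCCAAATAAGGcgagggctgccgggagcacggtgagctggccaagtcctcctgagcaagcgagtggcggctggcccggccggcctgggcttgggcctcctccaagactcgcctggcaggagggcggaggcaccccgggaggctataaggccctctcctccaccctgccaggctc
CNN2: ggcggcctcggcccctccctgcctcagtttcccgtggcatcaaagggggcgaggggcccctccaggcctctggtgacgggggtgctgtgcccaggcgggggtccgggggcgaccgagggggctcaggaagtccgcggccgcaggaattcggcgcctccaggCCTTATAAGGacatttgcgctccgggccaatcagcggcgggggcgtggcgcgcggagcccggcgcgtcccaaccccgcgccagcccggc
MYL6: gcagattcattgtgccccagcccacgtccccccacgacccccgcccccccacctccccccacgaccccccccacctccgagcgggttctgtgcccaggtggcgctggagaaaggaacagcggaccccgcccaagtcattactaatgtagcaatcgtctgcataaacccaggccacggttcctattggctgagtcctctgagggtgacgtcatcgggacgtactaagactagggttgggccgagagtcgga
ACTG2: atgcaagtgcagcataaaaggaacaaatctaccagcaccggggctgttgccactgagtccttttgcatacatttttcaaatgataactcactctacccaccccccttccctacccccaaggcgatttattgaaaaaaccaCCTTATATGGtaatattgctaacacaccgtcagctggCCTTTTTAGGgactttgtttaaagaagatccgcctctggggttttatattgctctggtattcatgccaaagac
The first base of the box lies at -94 from the start in ACTG1, -173 in TPM4, -89 in CNN2, and -110 and -73 in ACTG2. TPM4 has further annotated starts, at which no box was found. Of the genes whose windows hold a box, ACTG1 and TPM4 rose and CNN2 did not pass the test. Of those whose windows hold none, TPM2 and MYL6 rose, MYH9 rose but not under all 3 scalings, and TPM1 did not pass the test. A box was also found in 3 of the 15 relatives with a window: ACTG2, which rose, and ACTA1 and ACTC1, which were not tested. The other relatives called higher in TPM, TAGLN2, CNN3, MYL12A, MYL12B, MYH10 and TAGLN3, hold no box in their windows. ACTG2 was thus shown for its change and does not describe the relatives. Any part of the box in these changes was not tested. A match describes these letters only and says nothing of binding.

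Cytoplasmic actin was the most abundant product of the set and rose in both forms. ACTB, which encodes beta-actin, had 4699.7 and 4214 TPM in the barasertib libraries, against 2701 and 2612 TPM in the DMSO libraries. Both treated values lay above both control values by more than the gap between replicates. The group means were 4457 ± 344 TPM with barasertib and 2656 ± 62.7 TPM with DMSO (SD, n = 2 each), a 1.68-fold change (log2 0.74 ± 0.054, SE; limma adjusted p = 0.000733). ACTG1, which encodes gamma-actin, had 5874 and 5285 TPM with barasertib, against 4383 and 4222 TPM with DMSO. Its groups did not overlap either, and the change was smaller, 1.30-fold (log2 0.37 ± 0.053, SE; limma adjusted p = 0.00515). The ACTG1 change was 0.24 after median-of-ratios scaling (limma adjusted p = 0.0278) and 0.48 after quantile normalisation (limma adjusted p = 0.00279). Without the mean-variance trend its limma adjusted p was 0.0456. Of all tested genes 49.1% had both barasertib values above both DMSO values. In the files' hg19 coordinates ACTB (gene ID 60) spans chromosome 7 from 5566779 to 5570232 and ACTG1 (gene ID 71) spans chromosome 17 from 79476997 to 79479892, both on the minus strand.

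Beta-actin took a higher share of cytoplasmic actin transcript with barasertib. ACTB made up 44.4% of the summed ACTB and ACTG1 TPM in each barasertib library, against 38.1% and 38.2% in the DMSO libraries. The difference was 6.23 percentage points, while replicates differed by less than 0.1 points. With 2 libraries a group the exact two-sided permutation test gives p = 0.333, the smallest this design allows. Such a share is unchanged by any scaling that applies a single factor to each library, such as median-of-ratios scaling. Quantile normalisation is not of that kind, and shares after it were not computed. Together the 2 genes accounted for 1.06% and 0.950% of all TPM with barasertib, against 0.708% and 0.683% with DMSO.

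In TPM, few of the most abundant transcripts moved this way. Of the 137 tested genes that averaged 1000 TPM or more, 16.8% were called higher and 57.7% lower, and their median log2 change was -0.17. These shares were taken in TPM alone and depend on the scaling. After quantile normalisation the log2 change of ACTB was 0.86, and that of POU5F1 was 0.32 against 0.14 in TPM. Ranked by rise within them, ACTB stood at 4 and ACTG1 at 11. Among the genes above or between them were TMSB10 and TMSB4X, the thymosins that hold actin monomers in reserve, at ranks 2 and 5, and CFL1 (cofilin), which severs filaments, at rank 10, CFL1 being named after its value was seen. The others were TUBB2A, TUBB2B, PGK1, PKM, RNR1 and TPI1, at ranks 1, 3, 6, 7, 8 and 9. They lie outside the actin cytoskeleton lists described below and were also named after their values were seen.

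**Figure D2:**
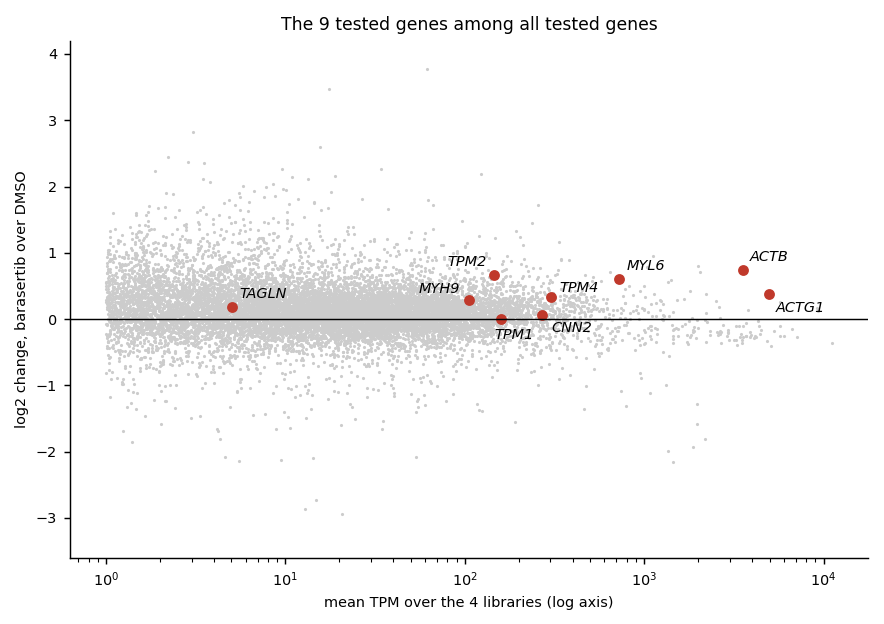
Log2 change between barasertib and DMSO (vertical axis) against mean TPM over the 4 libraries (horizontal log axis) for all 13938 tested genes in grey and the 9 tested actin, tropomyosin, myosin, transgelin and calponin genes in red. ACTB and ACTG1 lie above 0 at the abundant end, where most genes lie below 0.

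The other actins were scarce. ACTG2, the gamma actin of enteric smooth muscle, had 3.46 and 2.75 TPM with barasertib, against 0.492 and 0.700 TPM with DMSO. It rose 2.57-fold on the log2(TPM + 1) scale (log2 1.36 ± 0.19, SE; limma adjusted p = 0.00461), and also under all 3 scalings. The size depends on the pseudocount at this level, far below that of ACTB: the log2 change of ACTG2 was 2.21 with a pseudocount of 0.1 and 0.53 with 5, and passed the test in both (limma adjusted p of 0.00588 and 0.00488). With a pseudocount of 5 it was smaller than that of TAGLN2 (0.88). The skeletal actin gene ACTA1 was at 0.230 and 0.596 TPM with barasertib and listed at 0 in both DMSO libraries, and the smooth muscle gene ACTA2 lay at or below 0.182 TPM throughout. The cardiac gene ACTC1 and ACTBL2 were listed at 0 in all 4 libraries. Copies of actin or tropomyosin genes in the files, 10 in all, were at 0 in 4 cases and otherwise at most 4.996 TPM (TPM3P9, a copy of TPM3). Reads of ACTG1 copies could be split by the authors' counting, but the most abundant, ACTG1P25, had 3.01 and 3.24 TPM with barasertib and 2.28 and 2.75 TPM with DMSO.

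Of the tropomyosins of the set, TPM2 and TPM4 rose and TPM1 did not pass the test. TPM2, whose product is best known as beta-tropomyosin of muscle, had 196.7 and 162.6 TPM with barasertib, against 112.5 and 112.6 TPM with DMSO. The groups did not overlap, although the barasertib libraries lay further apart than for the other tropomyosins of the set. The change was 1.58-fold (log2 0.66 ± 0.090, SE; limma adjusted p = 0.00446). TPM4, a tropomyosin of non-muscle cells, had 333.6 and 339.4 TPM with barasertib, against 268.7 and 265.0 TPM with DMSO, and rose 1.26-fold (log2 0.33 ± 0.039, SE; limma adjusted p = 0.00287). The TPM4 change was 0.20 after median-of-ratios scaling (limma adjusted p = 0.0159) and 0.28 after quantile normalisation (limma adjusted p = 0.00655). TPM1, the alpha-tropomyosin gene, had 159.7 and 159.3 TPM with barasertib, against 153.6 and 165.3 TPM with DMSO. Its treated values lay between the control values, and the log2 change was 0.0015 with a 95% interval of -0.13 to 0.13 (limma adjusted p = 0.987). After median-of-ratios scaling the TPM1 change was -0.13 and after quantile normalisation it was -0.11, neither of which passed the test.

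The fourth tropomyosin gene, TPM3, showed the widest spread. It stood at 563 and 232 TPM with barasertib, against 440.7 and 444.1 TPM with DMSO, and did not pass the test (log2 change -0.29, 95% interval -1.18 to 0.61, limma adjusted p = 0.584). Without the second barasertib library the TPM3 change was 0.35 (adjusted p = 0.0185), and without the first it was negative (log2 -0.93, adjusted p = 0.00638), both from limma. Its share of all tropomyosin TPM was 44.9% and 26.0% with barasertib, against 45.2% and 45.0% with DMSO, so shares over the 4 genes differ between the barasertib libraries. In that sum TPM2 made up 15.7% and 18.2% with barasertib, against 11.5% and 11.4% with DMSO (exact two-sided permutation p = 0.333). The shares of TPM1 and TPM4 in it overlapped between the groups. Among TPM1, TPM2 and TPM4 alone, a grouping chosen after these values were seen, TPM2 made up 28.5% and 24.6% with barasertib, against 21.0% and 20.7% with DMSO. TPM1 made up 23.1% and 24.1% with barasertib, against 28.7% and 30.4% with DMSO. TPM4 overlapped between the groups, at 48.3% and 51.3% with barasertib and 50.2% and 48.8% with DMSO. For TPM1 and TPM2 the groups did not overlap (exact two-sided permutation p = 0.333, the smallest possible). Positions in hg19 are chromosome 15 from 63334838 to 63364113 for TPM1, chromosome 9 from 35681990 to 35690053 for TPM2 and chromosome 19 from 16178317 to 16213813 for TPM4.

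**Figure D3:**
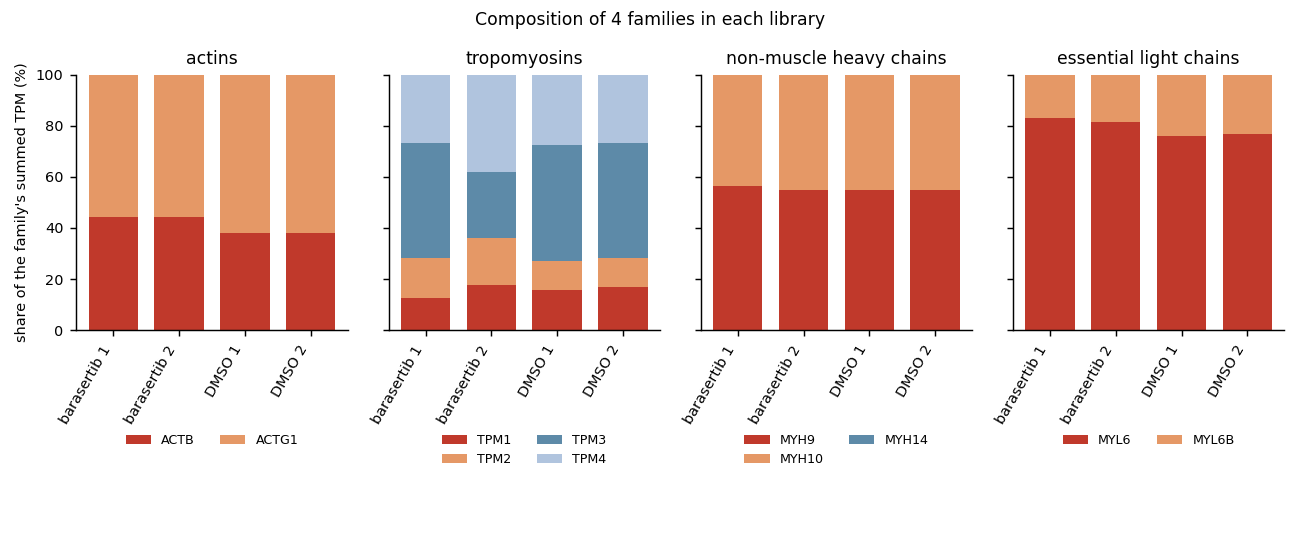
Share of each gene in its family's summed TPM (vertical axis, percent) in each library, for actins, tropomyosins, non-muscle myosin heavy chains and essential light chains. ACTB takes 44.4% of the actin sum in both barasertib libraries, against 38.1% and 38.2% with DMSO, and TPM3 takes 26.0% in the second barasertib library, against 44.9% to 45.2% in the other 3 libraries.

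Of the myosin II chains, the essential light chain changed most. MYL6, which encodes the essential light chain of non-muscle and smooth muscle myosin, had 913 and 846 TPM with barasertib, against 561 and 592.5 TPM with DMSO. The groups were separated by far more than the replicate gaps, and the change was 1.52-fold (log2 0.61 ± 0.051, SE; limma adjusted p = 0.00109). MYL6B, a second essential light chain gene next to MYL6 on chromosome 12, had 187 and 194.9 TPM with barasertib, against 177 and 179.7 TPM with DMSO. It did not pass the test (log2 change 0.096, 95% interval -0.015 to 0.21, limma adjusted p = 0.160). The share of MYL6 in the sum of both, computed after the values were seen, was 83.0% and 81.3% with barasertib and 76.0% and 76.7% with DMSO (exact two-sided permutation p = 0.333).

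MYH9, the heavy chain of non-muscle myosin IIA, had 120.5 and 112 TPM with barasertib, against 95.9 and 94.8 TPM with DMSO. It rose 1.22-fold (log2 0.28 ± 0.056, SE; limma adjusted p = 0.0146). It no longer passed with median-of-ratios scaling (log2 0.15, adjusted p = 0.112), after quantile normalisation (log2 0.18, adjusted p = 0.0679), without the mean-variance trend (adjusted p = 0.0581) and without barasertib replicate 1 (adjusted p = 0.0618), all from limma. MYH10, the heavy chain of myosin IIB, behaved alike in size, with 93.5 and 92.7 TPM with barasertib and 78.4 and 78.3 TPM with DMSO (log2 0.25, limma adjusted p = 0.0148), and its call was lost under both other scalings and without any 1 library (limma adjusted p of 0.0533 to 0.0603). MYH9 made up 56.3% and 54.7% of the heavy chain sum with barasertib and 55.0% and 54.8% with DMSO, values that overlap. MYH14 and the smooth muscle heavy chain MYH11 lay below 0.25 TPM in every library.

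MYL9, a regulatory light chain whose phosphorylation switches myosin II on, was barely present, at 0.902 and 1.31 TPM with barasertib and 0.666 and 1.08 TPM with DMSO. The groups overlapped. With no minimum level the log2 change of MYL9 came to 0.17 (limma adjusted p = 0.544). Nearly all regulatory light chain transcript came from MYL12A and MYL12B, a pair of near-identical neighbours on chromosome 18 whose reads the counting could split. MYL12A had 231 and 241 TPM with barasertib, against 191 TPM in both DMSO libraries, and rose (log2 0.30, limma adjusted p = 0.00562). MYL12B had 174 and 186 TPM with barasertib, against 146 and 159 TPM with DMSO (log2 0.24, limma adjusted p = 0.0332), a call lost under both other scalings and without any 1 library but DMSO replicate 2. MYL9 made up 0.222% and 0.305% of the 3 regulatory chains with barasertib and 0.197% and 0.307% with DMSO. In hg19, MYL6 spans chromosome 12 from 56552045 to 56555366, MYH9 chromosome 22 from 36677323 to 36784112 and MYL9 chromosome 20 from 35169887 to 35178226.

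Transgelins and calponins, which bind and stabilise filaments, have several paralogues each. TAGLN (transgelin, or SM22), a widely used smooth muscle marker, had 5.10 and 5.66 TPM with barasertib, against 3.97 and 5.41 TPM with DMSO. The groups overlapped, and the log2 change of 0.18 had a 95% interval of -0.20 to 0.55 (limma adjusted p = 0.426). TAGLN2, the form found outside muscle, had 124.8 and 116 TPM with barasertib, against 63.0 and 63.3 TPM with DMSO. It rose 1.89-fold (log2 0.92 ± 0.057, SE; limma adjusted p = 0.000465) and under all 3 scalings. TAGLN3, at 22.8 and 23.1 TPM with barasertib and 17.1 and 19.3 TPM with DMSO, was called higher in TPM (log2 0.32, limma adjusted p = 0.0337), a call lost under both other scalings and without any 1 library but DMSO replicate 2.

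CNN2, calponin 2, had 290.2 and 261.6 TPM with barasertib, against 275.8 and 255.5 TPM with DMSO. These values interleave, and the log2 change of 0.054 had a 95% interval of -0.11 to 0.21 (limma adjusted p = 0.572). CNN3, the acidic calponin, was more abundant, at 452 and 456.6 TPM with barasertib and 350.5 and 376.6 TPM with DMSO, and rose under all 3 scalings (log2 0.32 ± 0.047, SE; limma adjusted p = 0.00573). CNN1, the smooth muscle calponin, stood at 2.22 and 2.69 TPM with barasertib and 1.79 and 2.16 TPM with DMSO (limma adjusted p = 0.358). TAGLN (chromosome 11 from 117070040 to 117075508) overlaps an opposite-strand gene, LOC100652768, at 0.802 to 1.61 TPM, and MYL9 overlaps DLGAP4-AS1 on the opposite strand, at 1.44 to 2.88 TPM. The sources used here do not state whether counting used strand, so low values of TAGLN and MYL9 may hold reads of those genes. CNN2 spans chromosome 19 from 1026274 to 1039067.

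**Figure D4:**
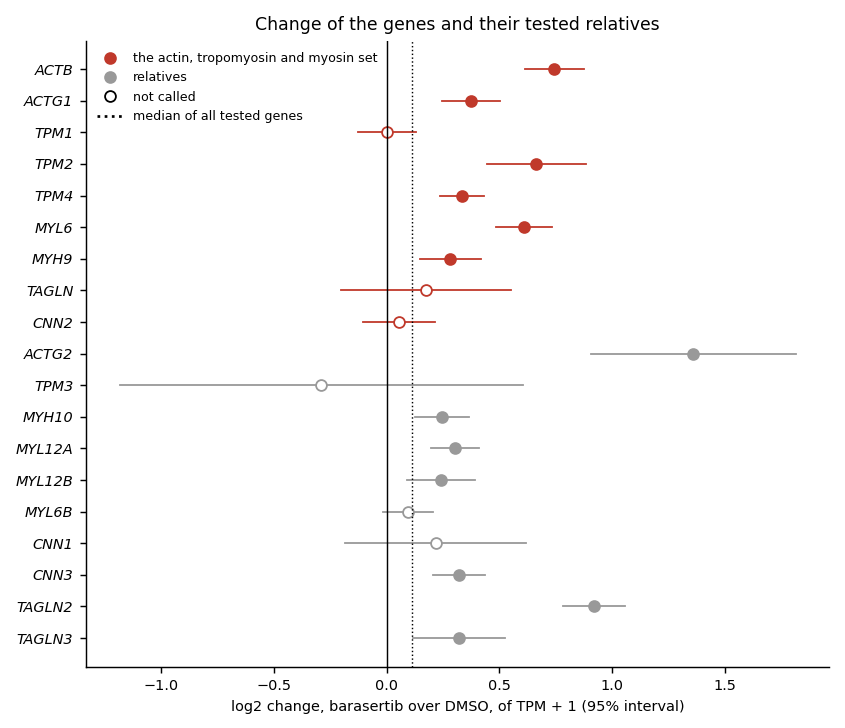
Log2 change (horizontal axis, barasertib over DMSO, on TPM + 1) with its 95% interval for the 9 tested genes in red and their 10 tested relatives in grey. Open points did not pass the test, and the dotted line is the median of all tested genes at 0.11. The widest interval belongs to TPM3, and ACTG2, TAGLN2 and ACTB have the largest changes at this pseudocount of 1.

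In all, 7 of the 10 tested relatives were called higher and none lower (4 higher under all 3 scalings, namely ACTG2, MYL12A, CNN3 and TAGLN2), with a median log2 change of 0.27. A further 6 of the 16 relatives were below the minimum level. Over all tested genes 22.0% were called higher, and 10.0% under all 3 scalings.

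The wider actin cytoskeleton was read from 7 lists, the relatives among them, with 140 genes outside the set, of which 119 were tested. In TPM 53 were called higher and 7 lower, with a median log2 change of 0.24, and 29 and 7 were called so under all 3 scalings. The count of 53 was 34 to 42 without any 1 library, and that of 7 was 3 or 4, the lowest in both cases without barasertib replicate 2. Over all tested genes the shares called were 22.0% higher and 7.44% lower, or 10.0% and 7.05% under all 3 scalings. Among genes with a mean of 100 TPM or more they were 35.5% higher and 19.5% lower. The counts of each list below are to be read beside these shares. Some lists overlap, with FLNA for example in both the SRF list and the crosslinker list, so their counts are not separate observations.

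The regulators SRF, MRTFA and MRTFB did not pass the test (limma adjusted p of 0.969, 0.324 and 0.284). SRF stood at 26.8 and 30.5 TPM with barasertib and 33.2 and 24.9 TPM with DMSO. MRTFA had 20.3 and 19.3 TPM with barasertib and 18.8 and 17.8 TPM with DMSO, and MRTFB had 4.87 and 4.72 TPM with barasertib and 5.58 and 5.44 TPM with DMSO. Of the 17 tested genes in their list, cytoskeletal targets included, 10 were called higher and none lower, 6 of them under all 3 scalings. FLNA (filamin A), which crosslinks filaments into networks, had 430.9 and 401.5 TPM with barasertib, against 254.5 and 243 TPM with DMSO (log2 0.74 ± 0.051, SE; limma adjusted p = 0.000641). ZYX (zyxin), a protein of focal adhesions, had 215.7 and 188 TPM with barasertib, against 127 and 115 TPM with DMSO. FHL1, a LIM domain protein, rose at a lower level, with 12.1 and 9.91 TPM with barasertib and 4.55 and 5.51 TPM with DMSO. TGFB1I1 (HIC-5), a zyxin-like adhesion protein at 2.77 and 1.66 TPM with barasertib and 0.658 and 0.922 TPM with DMSO, passed in TPM only (limma adjusted p = 0.0417). Its call was lost under both other scalings and without any 1 library (limma adjusted p of 0.0516 to 0.186). In this list 8 of 19 genes hold a CArG box within 250 bases of a start, SRF itself included, against 1.44% of all genes with a window. A gene with several starts was counted if any of them had a box. The list was drawn up as targets of SRF, so boxes among its genes are no separate result.

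Proteins that bind monomers, sever or cap filaments had 11 of 20 tested genes called higher and 1 lower, with 6 and 1 under all 3 scalings. TMSB4X had 2544 and 2558 TPM with barasertib, against 1520.2 and 1609 TPM with DMSO, and TMSB10 had 2648 and 2404 TPM with barasertib, against 1450.2 and 1451 TPM with DMSO. These thymosins changed about as much as ACTB (log2 0.71 and 0.80). The related TMSB15A had 24.5 and 25.5 TPM with barasertib, against 10.3 and 14.3 TPM with DMSO (log2 0.98, limma adjusted p = 0.00611). Its adjusted p was 0.0504 in limma without barasertib replicate 2. CAPZB, the beta subunit of capping protein, was called in TPM (log2 0.51, limma adjusted p = 0.0463), a call lost under both other scalings and without either barasertib library, and its DMSO libraries lay apart at 335 and 475 TPM, with 578 and 562 TPM in the barasertib libraries. The gene called lower was PFN2, the neuronal profilin, with 113.8 and 113.7 TPM with barasertib and 136.8 and 151.6 TPM with DMSO. It was named after its value was seen.

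Nucleators, which start new filaments, were called higher in 11 of 26 genes and lower in 1, but only 2 and 1 under all 3 scalings. Over all tested genes 10.0% were called higher under all 3, a share that the 2 nucleators do not exceed. ARPC5L, a subunit of the ARP2/3 complex that makes branched filaments, had 60.6 and 55.7 TPM with barasertib and 41.2 and 40.7 TPM with DMSO (log2 0.49, limma adjusted p = 0.00396). WASF1, an activator of that complex, and the formins FMNL1 and INF2 were called in TPM (limma adjusted p of 0.0129, 0.0330 and 0.0295), and none of these 3 calls held under all 3 scalings. Leaving out 1 library ended the call of FMNL1 in every case, that of WASF1 in every case but DMSO replicate 2, and that of INF2 without barasertib replicate 1 or DMSO replicate 2.

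Crosslinkers and linkers had 7 of 16 tested genes called higher and 1 lower, all of them under all 3 scalings. The median log2 change of the 16 was 0.13, close to the 0.11 over all tested genes. It was -0.0051 after median-of-ratios scaling and 0.054 after quantile normalisation, beside -0.012 and -0.0077 over all tested genes. FSCN1 (fascin), which packs filaments into bundles, had 477.8 and 414.9 TPM with barasertib, against 242 and 231.7 TPM with DMSO (log2 0.91 ± 0.072, SE; limma adjusted p = 0.000942). PALLD (palladin), a scaffold of stress fibres, rose by a similar factor (log2 0.75, limma adjusted p = 0.00227). ANLN (anillin), which ties actin and myosin together in the contractile ring, had 61.0 and 63.0 TPM with barasertib, against 43.5 and 44.3 TPM with DMSO. The gene called lower was PLS3 (plastin 3), another bundling protein, named after its value was seen, with 669 and 675.7 TPM with barasertib and 819 and 860.2 TPM with DMSO.

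RND3, RHOB, RHOC and RACGAP1 rose, also under all 3 scalings. They are the called genes with the largest change in a list of which the other genes are mostly not reported here, so they do not describe that list. RND3, whose product opposes the kinase ROCK, had 22.6 and 22.2 TPM with barasertib, against 8.99 and 7.63 TPM with DMSO (log2 1.33 ± 0.098, SE; limma adjusted p = 0.000740). RHOB had 52.5 and 48.4 TPM with barasertib, against 27.4 and 30.2 TPM with DMSO, and RHOC had 390 and 384 TPM with barasertib, against 243.7 and 246.6 TPM with DMSO. RACGAP1, part of the centralspindlin complex of cytokinesis, had 48.5 and 49.2 TPM with barasertib, against 33.0 and 31.5 TPM with DMSO. ARHGEF2 (GEF-H1), a microtubule-bound activator of RhoA, was called lower (log2 -0.47, limma adjusted p = 0.00201) and was named after its value was seen.

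Unconventional myosins, which carry cargo or link membranes to actin, had 2 of 14 tested genes called higher and 3 lower (1 and 3 under all 3 scalings), and their median log2 change was -0.0010. MYO5B, a motor of recycling endosomes, had 19.7 and 18.8 TPM with barasertib, against 27.1 and 28.3 TPM with DMSO (log2 -0.50 ± 0.071, SE; limma adjusted p = 0.00521). MYO19, a motor on mitochondria, was called lower (log2 -0.23, limma adjusted p = 0.0280), a call lost without any 1 library, and MYO9B higher in TPM alone (log2 0.30, limma adjusted p = 0.0341), a call lost likewise. No difference between lists was tested.

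**Figure D5:**
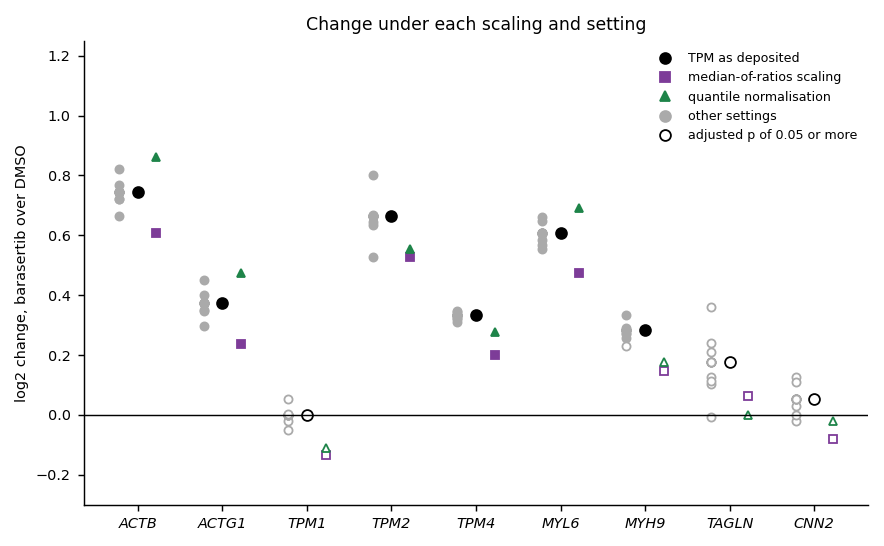
Log2 change between barasertib and DMSO (vertical axis) of the 9 tested genes with TPM as deposited in black, after median-of-ratios scaling in purple, after quantile normalisation in green and under the other settings in grey, with open symbols where the adjusted p was 0.05 or more. ACTB, ACTG1, TPM2, TPM4 and MYL6 keep filled symbols above 0 throughout, MYH9 has open symbols in 4 settings, and TPM1, TAGLN and CNN2 are open throughout.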

How the data were processed

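RNA from 2 barasertib and 2 DMSO samples of a single cell line was sequenced, and groups follow the sample titles. Per the labels, a stranded kit was used on polyadenylated RNA. The submitters' processing notes name HISAT2, StringTie and hg19, and their versions and strand setting are not stated there. Per the file headers, each deposited file holds coverage (signal, the mean depth per gene), FPKM and TPM. The deposited TPM values sum to 1000000 per library. There are no counts, and read number is unknown, so depth was estimated from the ratio of coverage to FPKM.

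TPM rows were summed per gene ID; of 27685 IDs, 27559 matched a RefSeq symbol (GRCh38.p14, names only) and 126 did not. The 13938 genes that averaged 1 TPM or more were tested with limma 3.58.1 (R 4.3.3) on log2(TPM + 1), two-sided, with group as the only term and a mean-variance trend (residual degrees of freedom 2, prior 4.09), and Benjamini-Hochberg adjustment over all tested genes with a threshold of 0.05. Because 1 is added to each TPM, a fold change on this scale is smaller than the true one for low genes. Shares within families were compared with exact permutation tests. The fit was tried on simulated data in which few genes were changed, all of them upward. In these data 29.5% of tested genes were called, so that trial says little of the calls made here. The genes, lists and tests were chosen with earlier results of these data known. The text names the 10 genes, 16 relatives, SRF, MRTFA and MRTFB, and in every other list up to 4 called genes with the largest change; any other gene is marked as chosen with its values seen. Marker genes are also named. Some genes that the rule names, and the counts of 1 list, are not reported here. The alternatives were no filter, a minimum of 5 TPM, pseudocounts of 0.1 and 5, FPKM, median-of-ratios scaling, quantile normalisation, no trend, robust moderation, the largest row per ID, a replicate block and leaving out each library. Python 3.11.15, scipy 1.17.1 and matplotlib 3.10.9 were used for tables and plots.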

Additional observations from a re-analysis of the deposited data

How the results depend on the processing

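The 6 genes called higher were 5 after median-of-ratios scaling, after quantile normalisation, without the mean-variance trend and without barasertib replicate 1, where MYH9 was lost, and 6 in the other 11 settings; none was called lower in any. Genes called over the whole table numbered 1534 higher and 1891 lower after median-of-ratios scaling, 1649 and 1590 after quantile normalisation, against 3071 and 1037 in TPM, so that the share of calls that were higher was 44.8% and 50.9%, against 74.8%. With no mean-variance trend the lower count was 674. Leaving out each library gave 1365 to 2181 higher and 601 to 699 lower genes. Of the other cytoskeleton genes 29 were higher after median-of-ratios scaling, 32 after quantile normalisation and 32 without the mean-variance trend, where 3 were lower. Leaving out each library gave 34 to 42 higher and 3 to 4 lower. The causes were not tested. With the replicate block 3218 genes were higher and 1080 lower, and the same 6 genes passed. Whether same-numbered libraries share a culture or batch is not known here. Their deviations from the group means correlated at 0.023 across genes, which cannot settle it. Of the named genes TGFB1I1 lost its call with the block (limma adjusted p = 0.0533).

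Changes that did not pass the test turned sign in some settings. For TPM1 the log2 change was -0.021 with FPKM, -0.13 after median-of-ratios scaling and -0.11 after quantile normalisation, and ran from -0.051 to 0.054 without each library. For CNN2 it was -0.081 after median-of-ratios scaling and -0.022 after quantile normalisation, and ran from -0.021 to 0.13 without each library. For TAGLN it ran from -0.0078 to 0.36 without each library, for SRF from -0.21 to 0.19 and for TPM3 from -0.93 to 0.35. MYL6B stood at -0.038 and -0.025 after median-of-ratios scaling and quantile normalisation, and MRTFA at -0.022 after median-of-ratios scaling. Without each library the share of TPM1 among the 4 tropomyosins differed by -3.50 to 1.58 percentage points, that of TPM4 by -0.58 to 10.8, that of MYH9 by -0.20 to 1.41 and that of MYL9 by -0.044 to 0.066. Leaving TPM3 out of the sum, chosen after seeing the data, gave -5.97 for TPM1, 5.66 for TPM2 and 0.31 for TPM4. The depth behind TAGLN and MYL9 limits what can be said of either.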
